A study of Mus musculus with 20 samples.

Results

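Histone H3 lysine 9 (H3K9) methylation was followed here through the mRNA of 8 genes: Ehmt2, Ehmt1, Wiz, Cdyl, Suv39h1, Suv39h2, Setdb1 and Setdb2. They were chosen by name, as the main H3K9 methyltransferases and partners of the G9a complex, and all 8 were found among the 23284 genes of the deposited table. Each of 20 libraries holds poly-A RNA of a tissue recombinant, a graft that combines epithelium of one source with mesenchyme of another. The epithelium came from mice aged 2 months, either from the seminal vesicle (SVE) or from the prostate (PE), and was combined with urogenital sinus mesenchyme of Sprague Dawley rats, the embryonic tissue that induces prostate. The grafts were taken 3 months after implantation. The labels name the mice as C57Bl/6J in one place and as a hybrid of 129/SvImJ and C57Bl/6J in another. Each of 5 groups had 4 libraries. SVE and PE are the 2 epithelia labelled wild type for NKX3.1. The other 3 groups are seminal vesicle epithelium labelled mNKX3.1, UTY_sh or mNKX3.1+UTY_sh. Hosts drank doxycycline for 3 months, the inducer of the altered pTRIPZ vector that the protocol describes, and the protocol mentions both a wild type NKX3.1 and a T164A mutant. The labels do not say which of them the m stands for, nor which cells of a graft carried the vector. No label states that a group's libraries are from different animals, and the p-values therefore measure no more than the spread between these samples, possibly technical.

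G9a, the product of Ehmt2, works as a heterodimer with GLP, the product of Ehmt1, and places mono- and dimethylation on H3K9 in euchromatin, where the marks are mostly linked to silent genes. WIZ is a zinc finger protein that stabilises the dimer and ties it to corepressors, and CDYL is a chromodomain protein that binds methylated H3 and brings in G9a. SUV39H1 and SUV39H2 trimethylate H3K9 in pericentromeric heterochromatin, SETDB1 does so at retroelements together with KAP1, and SETDB2 is its less studied relative. The series' title places G9a in a network with UTY, the Y-linked relative of the H3K27 demethylase KDM6A.

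Values are the deposited log2 values, so 1 unit is a doubling where genes are abundant, while differences of less abundant genes may be understated. Depth was 14930000 to 29810000 estimated reads per library. The gene that the hairpin is labelled for was checked first. Uty averaged 9.29 ± 0.21 (SD, n = 4) in SVE, 9.22 ± 0.23 in UTY_sh and 9.15 ± 0.09 in mNKX3.1+UTY_sh, against 10.24 ± 0.14 in PE. Limma called no fall of Uty in UTY_sh or in mNKX3.1+UTY_sh against SVE. Secretory genes checked the labelled tissue. The log2 of the summed level of 7 seminal vesicle secretory genes was 23.3 to 24.0 in SVE, against 14.9 to 17.7 in PE and 16.7 to 17.6 in mNKX3.1. The UTY_sh libraries (23.6 to 23.9) and the mNKX3.1+UTY_sh libraries (23.4 to 23.9) lay within the SVE range. The mNKX3.1 libraries, labelled as seminal vesicle epithelium, thus had these genes at the PE level.

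Some libraries stood unusually close to others. Distances are mean squared differences divided by the variance that counting alone gives, and are called times the counting noise. They are thus ratios of squares. Over 319 abundant genes not used to choose the weights, each mNKX3.1 library differed from a weighted sum of 2 PE libraries by 1.97 to 4.28 times the counting noise. In replicate 1 the weights were 0.451 for PE replicate 1 and 0.542 for PE replicate 3. A PE library taken as a sum of 2 other PE libraries differed by 6.90 to 54.2 times that noise. Single libraries were also compared directly, without weights and over all 638 such genes, so those values are not on the footing of the sums. The 2 closest PE libraries differed by 14.3 times, and the closest PE and mNKX3.1 libraries by 3.93 times. Each sum was the best pair of its pool. The pool held 4 libraries for mNKX3.1 from PE, 3 for PE from PE and 8 for mNKX3.1+UTY_sh, so the searches differed in size. In reverse, PE libraries lay 4.50 to 16.1 times from sums of 2 mNKX3.1 libraries. The SVE libraries lay 5.64 to 10.85 times from sums of 2 UTY_sh or mNKX3.1+UTY_sh libraries. The mNKX3.1+UTY_sh libraries lay 2.12 to 3.65 times the noise from sums of 2 SVE or UTY_sh libraries. The UTY_sh libraries lay 2.71 to 5.20 times from sums of 2 SVE or mNKX3.1+UTY_sh libraries, and the mNKX3.1 libraries 2.02 to 16.3 times from sums of 2 others of their own group. Compared directly, the mNKX3.1 replicates 2 and 4 differed by 2.45 times the noise. Whether these libraries share RNA or reads with others was not tested. The comparisons with mNKX3.1 below therefore rest on libraries close to the PE libraries. They cannot be fitted without the mNKX3.1 libraries, so fits without them are given only for PE against SVE.

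Ehmt2 was nearly level across the 5 groups. It was 11.39, 11.26, 11.35 and 11.30 in SVE and 11.28, 11.47, 11.19 and 11.26 in PE. In mNKX3.1 it was 11.27, 11.23, 11.32 and 11.34, in UTY_sh 11.24, 11.24, 11.24 and 11.42, and in mNKX3.1+UTY_sh 11.43, 11.37, 11.32 and 11.34. The 5 groups overlapped, and the whole span over 20 libraries was 0.28. PE differed from SVE by -0.02 (SE 0.06, 95% interval -0.145 to 0.0962), and mNKX3.1 differed from SVE by -0.04 (95% interval -0.156 to 0.0855). Ehmt2 is abundant enough for its reads to be recovered, 1886 to 3671 per library, so counting error was small. This level holds on the authors' scale. As a share of all reads Ehmt2 was 96.1 ± 16.9 per 1000000 in SVE (SD, n = 4) and 159.8 ± 11.6 in PE. That change of scale moves every gene of the table up by 0.77 in PE relative to SVE, Ehmt2 no more than the others.

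Ehmt1, the partner of Ehmt2 in the dimer, was level as well. It was 10.84, 10.97, 10.77 and 10.96 in SVE and 10.89, 11.0004, 10.83 and 10.85 in PE, with a difference of 0.01 (SE 0.06, 95% interval -0.124 to 0.141). In the libraries labelled UTY_sh it was 10.78, 10.65, 10.93 and 10.94. It was 10.90, 10.87, 10.89 and 10.96 in mNKX3.1 and 10.83, 10.84, 10.71 and 10.7997 in mNKX3.1+UTY_sh. These last 2 groups did not overlap, but their difference of -0.11 (95% interval -0.243 to 0.0223) did not pass limma's test (adjusted p = 0.135). Of the alternatives tried, it passed only with these 2 groups fitted alone (adjusted p = 0.0432). Among all 13456 genes tested, 3.73% had a smaller absolute difference between PE and SVE than Ehmt2, and 1.29% a smaller one than Ehmt1.

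**Figure D1:**
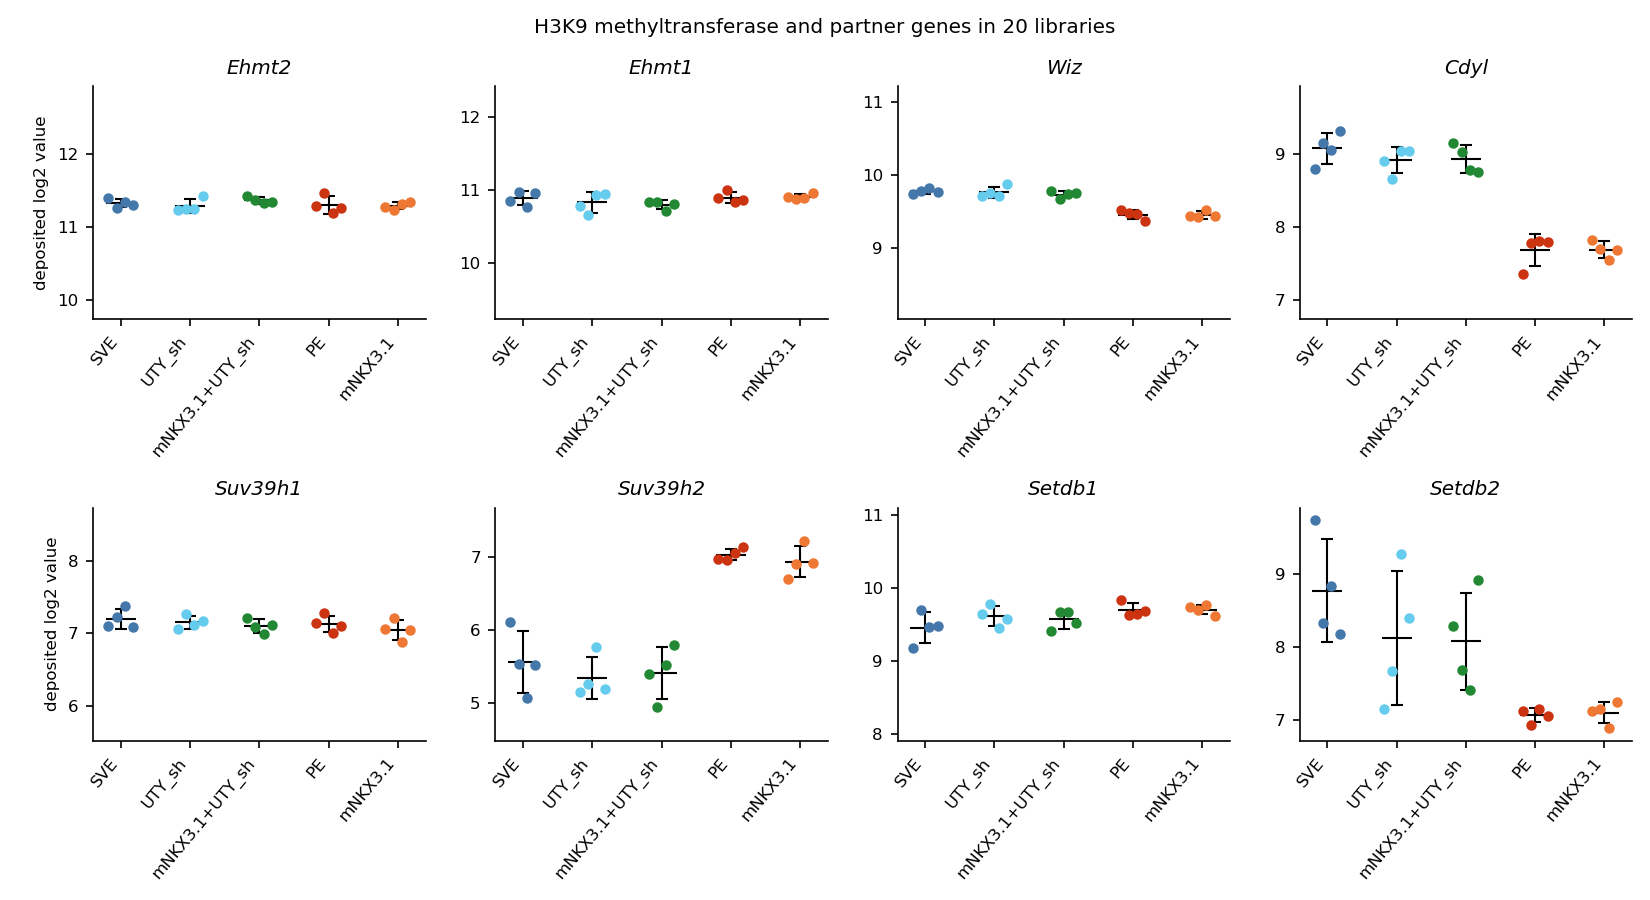
Deposited log2 values (y axis) of the 8 genes in each library, by group (x axis). Points are libraries in the order of replicates 1 to 4, bars the mean and SD of 4 libraries, and each panel spans the same range of log2 units. Ehmt2, Ehmt1 and Suv39h1 are level, Cdyl falls from about 9 in SVE to below 8 in PE and mNKX3.1, Suv39h2 goes the other way, and Setdb2 spreads from 7.16 to 9.74 in the 3 seminal vesicle groups SVE, UTY_sh and mNKX3.1+UTY_sh.

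Limma called the partners Wiz and Cdyl between the epithelia, unlike the core dimer. Wiz was 9.74, 9.78, 9.83 and 9.77 in SVE, against 9.53, 9.48, 9.47 and 9.37 in PE and 9.44, 9.42, 9.53 and 9.44 in mNKX3.1. All libraries of the latter 2 groups were below all SVE libraries. The change was small, -0.32 in PE (SE 0.05, limma adjusted p = 1.22e-05) and -0.32 in mNKX3.1 (adjusted p = 1.00e-05), about 1.25-fold on the scale of the values. In UTY_sh Wiz was 9.72, 9.75, 9.72 and 9.88, and in mNKX3.1+UTY_sh 9.78, 9.67, 9.74 and 9.75, inside or next to the SVE values. The size of the Wiz change was ordinary for this comparison, since 46.1% of genes had a smaller one.

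Cdyl fell further. It was 8.79, 9.15, 9.06 and 9.31 in SVE and 7.36, 7.78, 7.80 and 7.79 in PE, a change of -1.39 (SE 0.13, limma adjusted p = 3.02e-08) or 2.63-fold on this scale. In mNKX3.1 it was 7.83, 7.70, 7.55 and 7.68, a difference from SVE of -1.39 (adjusted p = 3.16e-08). The lowest SVE library lay almost 1 log2 unit above the highest PE or mNKX3.1 library, so the groups were far from overlapping. The libraries labelled UTY_sh had Cdyl at 8.91, 8.66, 9.05 and 9.04, and those labelled mNKX3.1+UTY_sh at 9.16, 9.03, 8.79 and 8.76, and both groups overlapped SVE. In the order of levels SVE, mNKX3.1+UTY_sh and UTY_sh came first with overlapping libraries, then a gap, then mNKX3.1 and PE, which differed by 0.0042.

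A gene-level value cannot tell which transcription start is in use, and for Cdyl this matters because RefSeq lists starts of opposite kinds. The 150 bases before each of 2 of them are shown for that contrast, from RefSeq on GRCm38.p6 (a later build than the mm9 of the deposited table), 5′ to 3′ on the + strand, with each CG dinucleotide, the target of DNA methylation, in capitals. The first is chr13:35659712-35659861 and the second chr13:35741252-35741401.
Cdyl, CpG-poor start: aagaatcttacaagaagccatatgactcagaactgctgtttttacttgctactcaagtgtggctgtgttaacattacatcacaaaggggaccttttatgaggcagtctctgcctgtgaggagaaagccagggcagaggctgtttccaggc
Cdyl, CpG-rich start: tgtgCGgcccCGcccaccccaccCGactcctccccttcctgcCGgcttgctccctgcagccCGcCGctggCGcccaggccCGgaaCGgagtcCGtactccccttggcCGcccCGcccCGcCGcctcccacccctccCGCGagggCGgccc
The first holds 0 and the second 17 CG dinucleotides. In the whole 300-base windows around these starts there were 3 and 34, beside a median of 7 over all 32851 windows of the same length. Wiz likewise has 4 listed starts, with 32, 13, 3 and 22 CG dinucleotides, whereas the windows of Ehmt2 (28 and 40) and Ehmt1 (34) are all rich in them.

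Of the SUV39 pair, Suv39h1 was level and Suv39h2 was not. Suv39h1 was 7.10, 7.22, 7.38 and 7.09 in SVE and 7.14, 7.28, 7.01 and 7.10 in PE, and the difference of -0.07 (95% interval -0.255 to 0.121) was not called. The mNKX3.1 libraries ran from 6.88 to 7.21, the UTY_sh libraries from 7.07 to 7.26. The mNKX3.1+UTY_sh libraries spanned 6.997 to 7.21. All 5 groups overlapped.

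Suv39h2 was higher in PE and mNKX3.1. It was 6.11, 5.53, 5.07 and 5.52 in SVE and 6.98, 6.97, 7.05 and 7.13 in PE, a rise of 1.47 (SE 0.20, limma adjusted p = 5.47e-06). In mNKX3.1 it was 6.70, 6.91, 7.22 and 6.92, a rise of 1.38 (adjusted p = 1.18e-05). No library of these 2 groups overlapped SVE. The libraries labelled UTY_sh (5.14, 5.26, 5.76 and 5.19) and mNKX3.1+UTY_sh (5.40, 4.94, 5.52 and 5.79) lay among those of SVE, apart from mNKX3.1+UTY_sh replicate 2, which lay below all of SVE. That replicate was the only library in which a member was below the minimum of 5 used to keep genes.

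The value of Suv39h2 is uncertain in one respect. In RefSeq it overlaps Dclre1c, a DNA repair nuclease gene on the opposite strand, and the sources used here do not state whether reads were assigned by strand, so reads of the 2 genes may not have been told apart. Dclre1c moved the same way, from 7.98 ± 0.24 in SVE to 9.54 ± 0.17 in PE (SD, n = 4), a rise of 1.56 (SE 0.12, limma adjusted p = 6.03e-09), and to 9.50 ± 0.11 in mNKX3.1. How much of the rise in Suv39h2 belongs to either gene was not tested. The 150 bases before the start of Suv39h2 are shown as the promoter of the single member that rose by more than 1 unit. They are chr2:3474987-3475136, 5′ to 3′ on the - strand, from RefSeq on GRCm38.p6, with CG in capitals.
Suv39h2: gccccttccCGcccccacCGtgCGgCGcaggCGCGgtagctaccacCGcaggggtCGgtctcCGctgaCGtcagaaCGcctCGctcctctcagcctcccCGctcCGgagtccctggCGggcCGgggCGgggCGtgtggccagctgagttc
They hold 18 CG dinucleotides, and the full window has more of them than 91.4% of all windows.

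Setdb1, the better known of the SETDB pair, showed a small difference that was not stable. It was 9.18, 9.70, 9.47 and 9.48 in SVE, 9.83, 9.63, 9.65 and 9.69 in PE, and 9.74, 9.70, 9.77 and 9.62 in mNKX3.1. The rise of 0.24 in PE (SE 0.09, limma adjusted p = 0.0304) and of 0.25 in mNKX3.1 (adjusted p = 0.0270) came with overlapping libraries, as SVE replicate 2 lay above some of both groups. Without SVE replicate 1, the lowest, the PE difference was 0.15 (adjusted p = 0.131) and the mNKX3.1 difference 0.16 (adjusted p = 0.118). The PE call was also lost without PE replicate 1 (0.20, adjusted p = 0.0938), and the mNKX3.1 call without mNKX3.1 replicate 1 (0.24, adjusted p = 0.0562) or replicate 3 (0.23, adjusted p = 0.0662). With only the 2 groups compared in the fit the adjusted p was 0.0842 for PE and 0.0561 for mNKX3.1. In UTY_sh Setdb1 was 9.65, 9.79, 9.45 and 9.58 and in mNKX3.1+UTY_sh 9.41, 9.68, 9.68 and 9.53, between SVE and PE in the mean.

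Setdb2 was the most variable of the 8 genes. It was 9.74, 8.33, 8.85 and 8.18 in SVE (SD 0.71), against 7.12, 6.93, 7.15 and 7.06 in PE (SD 0.10) and 7.13, 7.15, 6.89 and 7.24 in mNKX3.1 (SD 0.15). All SVE libraries were above all PE and mNKX3.1 libraries, a change of -1.71 in PE (SE 0.39, limma adjusted p = 9.48e-04) and -1.67 in mNKX3.1 (adjusted p = 0.00116). In UTY_sh it was 7.16, 7.68, 9.28 and 8.41 and in mNKX3.1+UTY_sh 8.29, 7.69, 7.41 and 8.92. UTY_sh replicate 1 lay among the mNKX3.1 libraries, whereas all mNKX3.1+UTY_sh libraries were above those of PE and mNKX3.1. The means of these 2 hairpin groups were lower than SVE by 0.65 (95% interval -1.46 to 0.174) and 0.70 (95% interval -1.51 to 0.124), which was not called.

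The highest Setdb2 value in each of the 3 seminal vesicle groups SVE, UTY_sh and mNKX3.1+UTY_sh fell in a library with high Pbsn, the androgen-dependent probasin gene of prostate. Pbsn was 15.7 in SVE replicate 1, 14.8 in UTY_sh replicate 3 and 15.1 in mNKX3.1+UTY_sh replicate 4. In UTY_sh replicate 2 Pbsn was 13.8 and Setdb2 7.68, and in mNKX3.1+UTY_sh replicate 3 Pbsn was 12.6 and Setdb2 7.41. In the PE libraries Pbsn was 17.4 to 18.002, beside Setdb2 at 6.93 to 7.15. Without the 3 libraries richest in Pbsn the PE difference of Setdb2 was -1.39 (limma adjusted p = 1.65e-04). The part of prostate-like cells in the Setdb2 values was not tested.

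Setdb2 starts back to back with Cab39l, a gene of a scaffold protein related to MO25 of the LKB1 kinase complex, and the 82 bases between the 2 starts are shown because both genes differed. They are chr14:59440881-59440962, 5′ to 3′ on the - strand (towards Setdb2), from RefSeq on GRCm38.p6, with CG in capitals.
Setdb2 to Cab39l: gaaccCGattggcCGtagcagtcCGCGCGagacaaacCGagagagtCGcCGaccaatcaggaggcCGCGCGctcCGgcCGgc
This short stretch holds 13 CG dinucleotides. Cab39l was 11.51 ± 0.13 in SVE and 10.74 ± 0.22 in PE (SD, n = 4), a fall of 0.77 (SE 0.11, limma adjusted p = 5.08e-06), and 10.803 ± 0.15 in mNKX3.1. It was 11.70, 11.53 and 11.44 in the 3 libraries named above as the highest for Setdb2, each also the highest for Cab39l in its group. The libraries share scaling and tissue, so the likeness is a description only.

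**Figure D2:**
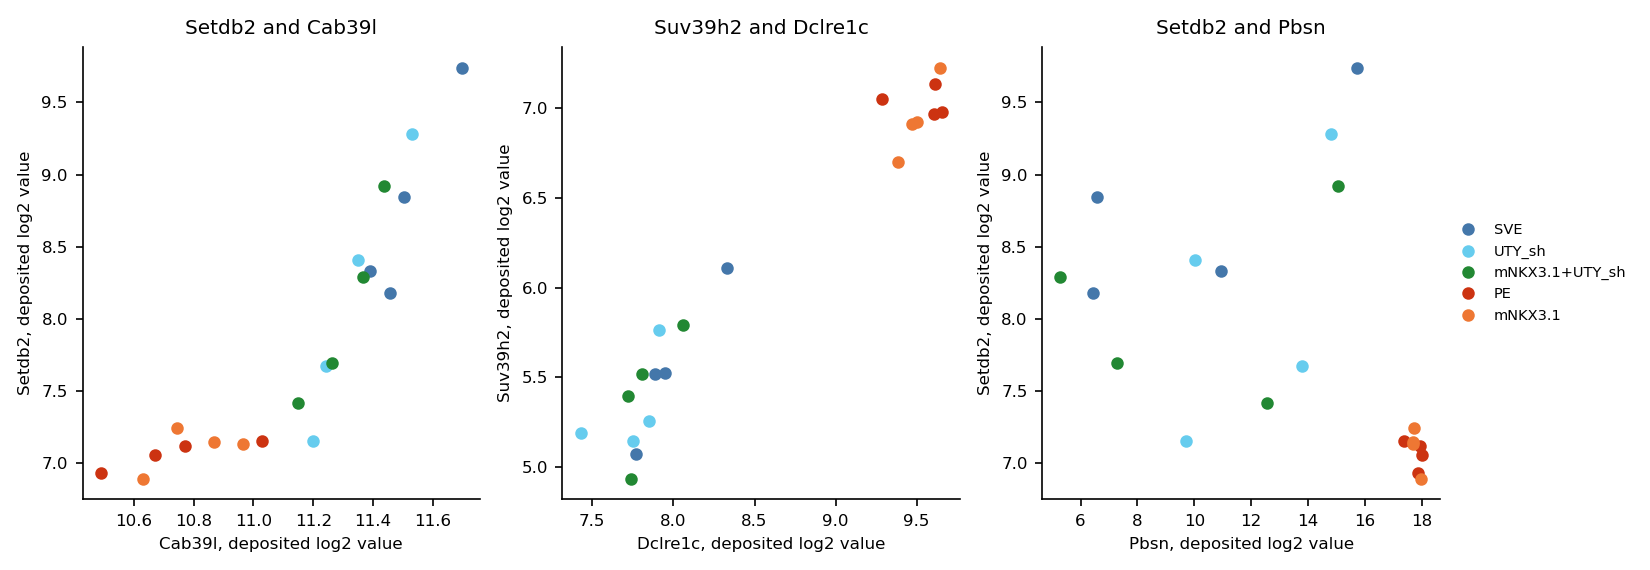
Deposited log2 values of 20 libraries, coloured by group, for Setdb2 (y axis) against its head-to-head neighbour Cab39l (left), Suv39h2 against the overlapping Dclre1c (middle) and Setdb2 against Pbsn (right). Setdb2 spans 7.16 to 9.74 in SVE, UTY_sh and mNKX3.1+UTY_sh, Suv39h2 and Dclre1c form a low and a high cloud, and Setdb2 is low in all libraries with Pbsn above 17.

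Set against the whole table, the 8 genes were not unusual. Limma called 5 of 8 between PE and SVE, 2 higher and 3 lower, beside 62.1% of all genes tested (31.8% higher and 30.4% lower), and 5 of 8 between mNKX3.1 and SVE beside 62.3% (31.7% higher, 30.6% lower). These 2 comparisons share the SVE libraries. A share so near the background is no result about these genes as a set. Their median difference in PE was -0.05 and their median absolute difference 0.28, against 0.02 and 0.36 for all genes. Setdb2, Suv39h2 and Cdyl stood high in that spread, with 92.5%, 90.7% and 89.8% of genes having a smaller absolute difference. With the mNKX3.1 libraries left out of the fit the PE comparison still called the same 5 genes. With the mNKX3.1+UTY_sh libraries left out too, Setdb1 was not called (adjusted p = 0.0624) and the other 4 were.

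The libraries labelled with the hairpin alone or with hairpin and construct gave no call against SVE in the 8 genes. Limma called 0 of 8 for UTY_sh against SVE and 0 of 8 for mNKX3.1+UTY_sh against SVE, beside 0% of all genes in both. At an unadjusted p under 0.05 limma gave 0 of the 8 genes in both, beside 316 of all genes (2.35%) and 557 (4.14%). The intervals allow little change for Ehmt2, from -0.162 to 0.0797 in UTY_sh and from -0.0810 to 0.160 in mNKX3.1+UTY_sh, and far more for Setdb2. Between mNKX3.1 and PE 0 of 8 were called (0% of all genes, and 65 or 0.483% at an unadjusted p under 0.05). The differences there ran from -0.09 for Suv39h2 to 0.04 for Setdb2. Each of the unadjusted shares in this paragraph was below the 0.05 that chance alone would give between independent samples. The absent calls therefore do not measure how alike the groups were, and the reason was not tested.

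The libraries labelled mNKX3.1+UTY_sh differed from those labelled mNKX3.1 in 4 of the 8 genes, beside 63.8% of all genes (31.4% higher, 32.4% lower). Cdyl was 1.24 higher (SE 0.13, limma adjusted p = 1.26e-07), Wiz 0.28 higher (adjusted p = 4.79e-05) and Setdb2 0.98 higher (adjusted p = 0.0364), and Suv39h2 fell by 1.53 (adjusted p = 3.51e-06). This comparison shares the mNKX3.1 libraries with that of mNKX3.1 against SVE. The Setdb2 call was fragile. It was lost without any one of mNKX3.1 replicates 1, 2, 3 and 4 or of mNKX3.1+UTY_sh replicates 1 and 4, with differences of 0.70 to 1.02 and adjusted p of 0.0507 to 0.136. It was also lost with mNKX3.1 replicates 2 and 4 counted as 1 sample (adjusted p = 0.0545). Against PE the same 4 genes were called in mNKX3.1+UTY_sh, beside 63.1% of all genes (30.9% higher, 32.2% lower), with Cdyl 1.25 higher, Wiz 0.27 higher, Setdb2 1.01 higher (adjusted p = 0.0304) and Suv39h2 lower by a difference of -1.62. There the Setdb2 call was lost without PE replicate 2 or 4 or mNKX3.1+UTY_sh replicate 1 or 4 (differences 0.73 to 1.01, adjusted p 0.0539 to 0.117).

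The interaction term subtracts UTY_sh minus SVE from mNKX3.1+UTY_sh minus mNKX3.1, and it was called for 4 of 8 genes beside 48.1% of all genes (24.0% higher, 24.0% lower). It was 1.41 for Cdyl (SE 0.18, limma adjusted p = 5.01e-06), 0.29 for Wiz (adjusted p = 0.00147), 1.62 for Setdb2 (adjusted p = 0.0215) and -1.31 for Suv39h2 (adjusted p = 0.00112). Setdb1, at -0.29, was not called (adjusted p = 0.0748), although it was without SVE replicate 2 (-0.37, adjusted p = 0.0189) or UTY_sh replicate 3 (-0.35, adjusted p = 0.0404). Limma called no fall of Uty in either hairpin group against SVE. Between mNKX3.1+UTY_sh and mNKX3.1 it called Uty lower, with a difference of -1.08 (limma adjusted p = 1.37e-07). The interaction term of Uty itself was -1.01 (adjusted p = 4.09e-05). For the 8 genes the term therefore describes these libraries as labelled.

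**Figure D3:**
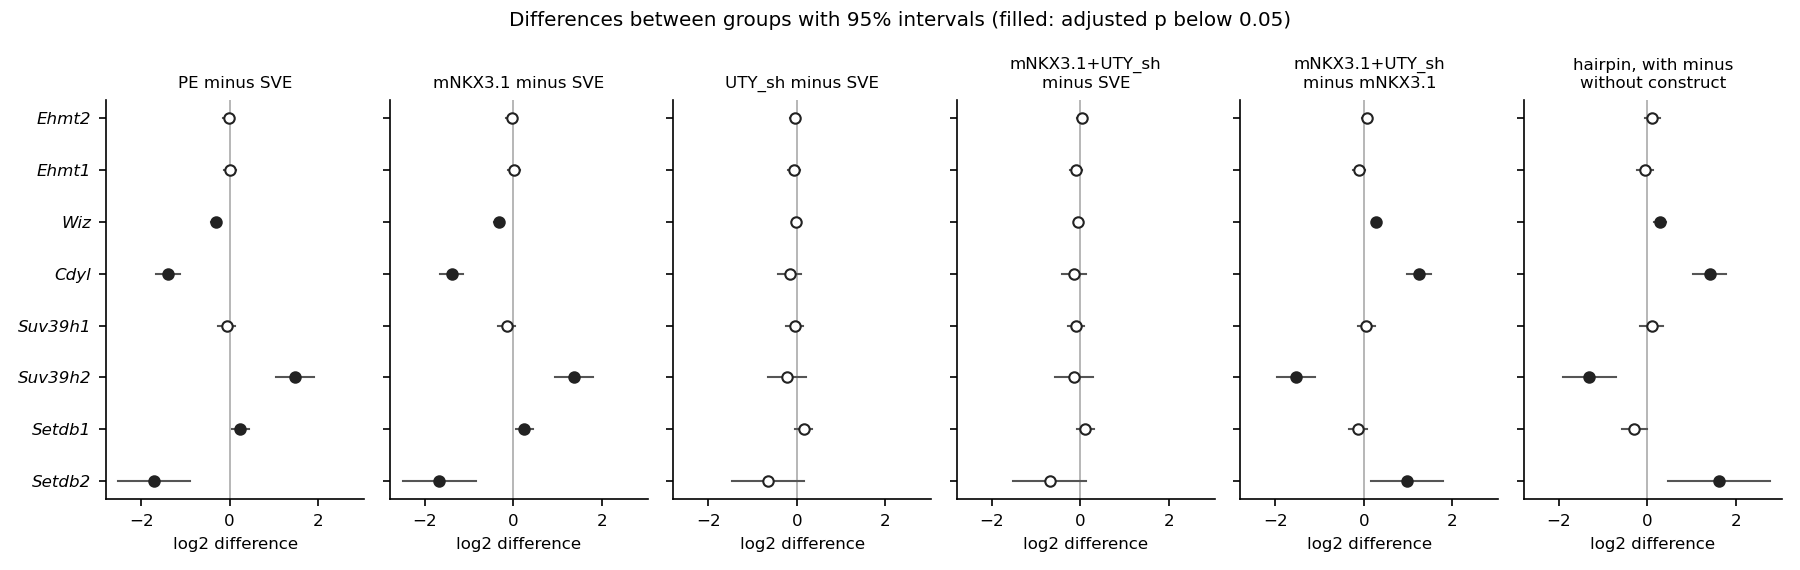
Log2 differences (x axis) of the 8 genes (y axis) in 6 comparisons, with 95% intervals from the fit to all 20 libraries. Filled circles passed an adjusted p below 0.05. PE and mNKX3.1 against SVE match in direction, the hairpin groups against SVE hold no filled circle, and mNKX3.1+UTY_sh against mNKX3.1 and the interaction have filled circles for Wiz, Cdyl, Suv39h2 and Setdb2.

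Other cell types moved with the same groups, and in bulk tissue fewer cells of a type and less RNA per cell cannot be told apart. Limma called each of the 9 smooth muscle genes lower in PE against SVE, with a median difference of -1.16. The log2 of their summed level was 15.6 to 16.1 in PE and 15.7 to 15.9 in mNKX3.1, below the 16.6 to 17.4 of SVE. The hairpin libraries had 16.8 to 17.4 (UTY_sh) and 16.9 to 17.3 (mNKX3.1+UTY_sh). These are the groups with high and low Cdyl and Wiz. All 5 nerve and neuroendocrine genes and the 5 adipocyte genes tested (of 6) were higher in PE. Of 5 endothelial genes 2 were lower, of 7 fibroblast genes 3 were lower, and of 5 leukocyte genes tested (of 8) 1 was higher. Among all genes tested 31.8% were higher and 30.4% lower in PE. Leukocyte genes differed between the libraries of a group. Itgam was 11.32 and 10.38 in PE replicates 2 and 4, against 7.12 and 7.92 in replicates 1 and 3, and the log2 of the summed leukocyte level ran from 10.727 to 13.4 in PE and from 11.032 to 11.4 in SVE. Epithelial markers moved with the groups as well. Of 6 luminal genes 5 were higher in PE and 1 lower, with Epcam higher by 1.73 and Cdh1 by 0.71. Of 5 basal genes 2 were higher and 3 lower, with Trp63 and Krt14 both at -1.14 and Dst at 0.62. The log2 of the summed basal level had a median of 12.64 in PE and 12.39 in SVE. The lowest genes of this table lie near 2.27 and not at 0 (5801 genes have a mean below 2.5), and Tubb3 in SVE (2.02 to 3.15) and Cd3e in all libraries (1.83 to 4.02) lay near that floor. Rat reads that align to mouse genes are not separated in the table. Of 9 proliferation genes tested (of 14), Top2a was higher by 1.38 and Rrm2 and Mcm2 fell by 0.72 and 0.55. The part of cell types, of rat RNA and of proliferation in the differences of the 8 genes was not tested.

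Of 3 further H3K9 methyltransferase genes tested 2 fell in PE, beside 30.4% of all genes tested. The median difference of the 3 was -2.38. Mecom and Prdm16, zinc finger proteins of the PRDM family for which H3K9 monomethylation has been described, were those 2. Mecom was 8.75, 9.39, 9.28 and 9.44 in SVE and 6.82, 6.40, 5.95 and 6.56 in PE, a change of -2.78 (SE 0.19, limma adjusted p = 8.90e-10). Prdm16 went from 7.64 ± 0.19 to 5.26 ± 0.84 (SD, n = 4), a change of -2.38 (adjusted p = 7.33e-07). Neither gene's SVE libraries overlapped PE. Prdm2 at -0.14 was not called, and Prdm8 stayed below the minimum used to keep genes. In the libraries labelled mNKX3.1+UTY_sh Mecom averaged 9.37 ± 0.12 and Prdm16 7.63 ± 0.14, near SVE.

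Of 8 partners of the G9a and GLP dimer beyond Wiz and Cdyl, 5 rose and 1 fell in PE, where 31.8% of all genes tested rose and 30.4% fell. Their median difference was 0.43, against 0.02 for all genes, and the list, chosen with earlier results known, was not tested as a set. Zfp462, a zinc finger protein that recruits the dimer, rose from 8.38 ± 0.26 to 9.43 ± 0.18 (SD, n = 4; 1.05, SE 0.13, limma adjusted p = 1.52e-06). Zfp518a rose by 0.52 and E2f6, the repressive E2F of a complex that holds the dimer, by 0.50. Zfp644, which binds the dimer beside WIZ, fell by 0.34 (adjusted p = 5.27e-05), close to the fall of Wiz. Of 7 partners of SETDB1 and KAP1 tested, 1 rose and 1 fell. Trim28, which encodes KAP1 itself, rose by 0.29 (adjusted p = 1.08e-04), and Morc2a, a HUSH-associated ATPase, fell by 0.26.

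Enzymes that remove the mark and proteins that read it changed in both directions. Of 10 H3K9 demethylases tested, 2 rose and 4 fell, beside 31.8% higher and 30.4% lower among all genes tested. Their median absolute difference was 0.18 against 0.36 for all genes. Kdm4a fell by 0.41, Phf8 by 0.48 and Kdm4b by 0.33. Among 7 readers tested 1 rose and 2 fell, beside the same shares of all genes. Cbx5, the gene of HP1 alpha, went from 10.63 ± 0.05 to 10.06 ± 0.08 (SD, n = 4), a change of -0.57 (SE 0.05, limma adjusted p = 3.10e-08), and Pogz, an HP1-binding zinc finger protein, fell by 0.22. Chd4, a nucleosome remodeller, rose by 0.15.

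The DNA methylation enzymes and readers gave 2 higher and 2 lower of 8 tested, beside 31.8% higher and 30.4% lower among all genes tested. Mbd1 was higher by 0.21 and Tet1 by 0.77. Of 9 corepressors that recruit H3K9 methyltransferases, 1 rose and 4 fell: Hdac2 rose by 0.37, and Rest and Sirt1 fell by 0.40 and 0.37. REST is a partner of CDYL, which brings in G9a. Of the 7 H3K27 enzymes, Uty rose by 0.95, and Kdm6b and Ezh2 fell by 0.57 and 0.61. Of 12 germline genes known to be silenced through H3K9 methylation, 9 did not pass the minimum used to keep genes, and the highest value among these 9 was 3.88, for Taf7l. Of the 3 tested, Sycp1 was 0.35 higher in PE (limma adjusted p = 0.0339), and Tdrkh, at 6.94 ± 0.29 in SVE and 7.13 ± 0.04 in PE (SD, n = 4), and Sycp3 were not called.

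**Figure D4:**
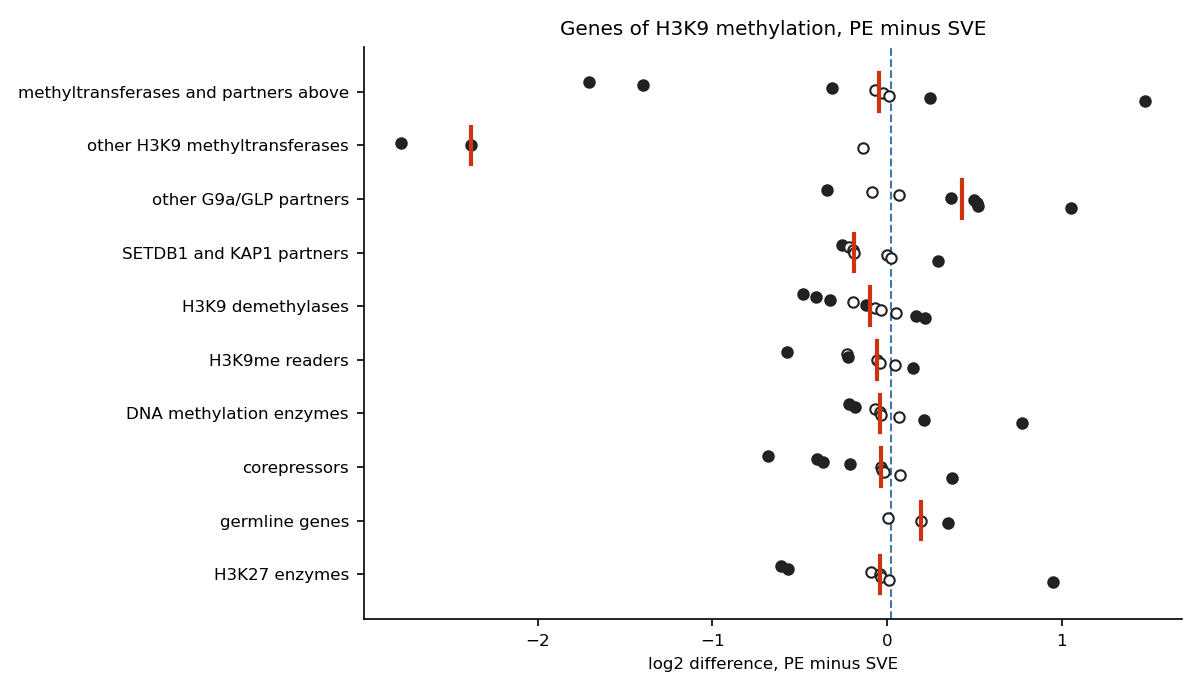
Log2 difference of PE minus SVE (x axis) for each gene tested of 10 lists (y axis). Filled circles passed limma's adjusted p below 0.05, red bars are the medians of the lists, and the dashed line is the median of all genes at 0.02. The list of the 8 genes spreads from -1.71 to 1.47 around a median of -0.05, while 5 of the other G9a/GLP partners lie to the right and Mecom and Prdm16 far to the left.

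The same genes of these lists took similar values in mNKX3.1 against SVE, which shares the SVE libraries. Mecom changed by -2.97, Prdm16 by -2.19, Zfp462 by 0.98, Cbx5 by -0.61 and Kdm4a by -0.43. In mNKX3.1+UTY_sh against mNKX3.1 they changed by 3.12, 2.18, -0.83, 0.53 and 0.54. In UTY_sh against SVE 0 of the genes in these lists were called, and the difference was 0.14 for Mecom, 0.18 for Zfp462 and 0.0053 for Cbx5.

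The genes whose pattern over 20 libraries was most like each of the 8 were listed by Pearson's r, as a description. Cdyl was closest to Smpdl3a (r = 0.989), Eif1a (0.987) and Fam53b (0.987), Wiz to Ephb4 (0.970), Pkd1 (0.970) and Acacb (0.967), and Suv39h2 to Trappc4 (0.986), Golm1 (0.981) and 1810074P20Rik (0.981). Setdb2 was closest to 1190007I07Rik (0.961), Tnfrsf13c (0.948) and Gm6907 (0.927), which also varied among the seminal vesicle libraries. The level genes had weaker matches. Ehmt2 was closest to Gga1 (0.855), Ints1 (0.823) and Dnmt3a (0.804), and Ehmt1 to Zswim3 (0.872), Stxbp6 (0.844) and Fndc3a (0.817). Setdb1 was closest to Deptor (0.887), Ogdh (0.864) and Cyp51 (0.852), and Suv39h1, the weakest, to 4831426I19Rik (0.731), Scpep1 (0.690) and Ugt1a7c (0.674). All 20 points share scaling and the 5 groups, so they are not independent.

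The promoter windows of the 8 genes (250 bases before to 50 after each listed start) were searched on both strands for short motifs. TTTGAA, a cell cycle element, is in 17.9% of windows and in those of Suv39h2 and 1 of Wiz, and the E-box CACGTG in 7.15% and in both of Ehmt2. A match is a description and not a bound site, and no match says only that these letters are not in this window.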

How the data were processed

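Poly-A RNA from 20 recombinant grafts was sequenced from TruSeq libraries on a HiSeq 2000, per the labels' protocols. Per the submitters' processing notes, bcl2fastq 1.8.4, TopHat2 2.0.4, Cufflinks 2.0.2, DESeq and mm9 were used. Not given in the sources used here: their order, the read counter, the annotation, and how rat and antisense reads were handled. The authors deposited log2 values. From 10.8 up their antilogs were whole multiples of 1 read's worth (100% of gaps tested, within 0.1). Lower values followed no such steps, and the 5801 genes whose mean is under 2.5 have 2.27 as their median value, so no count test was run. Ehmt2 lies in the upper range in all libraries, Ehmt1 in 15 of 20, and the other 6 genes below it.

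Genes with a value of at least 5 in at least 4 libraries were kept (13456, with all 8 genes). Limma 3.58.1 (R 4.3.3) was fitted to all 20 libraries with a mean per group, a variance trend and Benjamini-Hochberg adjustment within each of 8 comparisons. An adjusted p below 0.05 was called, and the script was tested on simulated data. Depth, estimated from 1 read's worth, was lowest in PE and highest in mNKX3.1+UTY_sh (14930000 to 29810000 reads over all libraries), which limits the precision of the less abundant genes most.

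The 8 genes, the lists and the tests were chosen with earlier results of these data known. Named are the 8 genes, Uty, up to 3 called genes per list with the smallest p in PE against SVE, and the 3 genes most like each of the 8. Some genes that this rule takes in are not reported here. The genes named beside them (Cab39l, Dclre1c, Pbsn, Prdm2, Prdm8, Zfp644 and the uncalled germline genes) were picked after their values were seen. Replicates were numbered in accession order. Alternatives were other filters, scalings, priors and fits, and leaving out libraries. Promoter sequences are RefSeq's, on GRCm38.p6, matched by symbol for all 8 genes.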

Additional observations from a re-analysis of the deposited data

Results flagged for a closer look

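In 3 of the 40 combinations of gene and group 1 library stood apart from the other 3 by Dixon's test, where chance gives about 1 in 20. Ehmt2 was 11.42 in UTY_sh replicate 4, against 11.24 in the other 3 libraries. Wiz was 9.53 in mNKX3.1 replicate 3, against 9.42 to 9.44. Cdyl was 7.36 in PE replicate 1, against 7.78 to 7.80. Leaving out any of these libraries changed no call of the gene concerned.

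Limma called the interaction term for 4 of the 8 genes, beside 48.1% of all genes tested. A share so near the background is no result about these genes as a set. In these 4 genes the hairpin's difference from its own comparison group was not the same with and without the construct. The term was 0.29 for Wiz, 1.41 for Cdyl, -1.31 for Suv39h2 and 1.62 for Setdb2. Limma called no fall of Uty in either hairpin group against SVE, but called Uty lower in mNKX3.1+UTY_sh than in mNKX3.1, as given above. The term describes the libraries as labelled.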

How the results depend on the processing

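Across 31 alternatives, 1872 of the results for single genes kept their side of the threshold. Another 21 lost a call, 3 gained one and 0 reversed while called. Uncalled differences could change sign, as that of Ehmt2 in PE against SVE did (-0.081 to 0.011). The numbers of genes called, among the 8 and among all, stayed within 1.5 times. In PE against SVE 6429 to 8721 genes were called over these settings. Calls of Cdyl, Wiz and Suv39h2 were kept in each setting that gave a value, with differences in PE of -1.49 to -1.29, -0.34 to -0.29 and 1.31 to 1.66. The changed calls were those of Setdb1, Setdb2 and, with only the 2 groups fitted, Ehmt1, given above. Without the 3 libraries rich in Pbsn the Setdb1 difference was 0.15 in PE (adjusted p = 0.116) and 0.16 in mNKX3.1 (adjusted p = 0.103). The cause of these changes was not tested. The fits without the mNKX3.1 or mNKX3.1+UTY_sh libraries, and with mNKX3.1 replicates 2 and 4 as 1, were chosen after seeing the data. No paired analysis was possible because the labels give no replicate numbers that link libraries across groups. Apart from Ehmt2 and Ehmt1 the genes lie below the range of whole reads, where differences may be understated. Where that begins was not tested.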
